A study of Mus musculus with 38 samples.

Results

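Secreted inflammatory factors of damaged and senescent cells were followed through the genes Il1a, Il1b, Tnf, Il6, Cxcl1, Cxcl2, Ccl2 and Ccl7, together with Cdkn2a, a cell cycle inhibitor used as a marker of senescent cells. The 9 genes were chosen by name and found on the arrays through the RefSeq transcript listed for each probe. They were read by 10 of 55681 probes, and by 38 spots on each array. Cdkn2a had 2 probes, and the brighter of them is described unless the second is named. The genes belong to 20018 genes that could be given a symbol.

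The RNA came from lung and forestomach of male MutaMouse, a transgenic strain used in mutation assays, at an age of about 10 weeks. Mice were gavaged daily for 28 days with the polycyclic aromatic hydrocarbon dibenz(ah)anthracene (DBahA) in olive oil. D1 mice received 6.25 mg/kg-bw/day, D2 mice 12.5 and D3 mice 25, while D0 mice received olive oil alone. Sampling followed 72 h after dosing ended, and random sections of whole tissue were used. Lung RNA came from 5, 5, 4 and 5 mice of D0 to D3, and forestomach RNA from 5, 5, 4 and 4 of the same mice. Each of the 38 arrays held Cy5-labelled tissue RNA and a Cy3-labelled universal reference RNA pooled from mouse cell lines, so a log2 ratio gives a tissue level relative to that pool.

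Il1a, Il1b and Tnf are cytokines that open an inflammatory response, and Il6 follows them. Cxcl1 and Cxcl2 draw neutrophils, while Ccl2 and Ccl7 draw monocytes. Senescent cells are known to secrete many of these proteins, and transcription through the NF-kB factors is a well-described route to their release. Cdkn2a encodes both p16Ink4a and p19Arf, which halt the cell cycle, and Cdkn1a (p21) does so downstream of p53.

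To show the NF-kB motif at the chemokine and cytokine promoters, the 250 bases before the transcription start were searched on both strands for GGG and CC with any 5 bases between them. Promoters of 7 of the 9 genes were found in the RefSeq table (build GRCm38.p6), and those of Ccl2 and Ccl7 were not in it. This loose motif was present in 45.8% of all 32851 promoters, and a match describes the letters only. On the gene's strand Cxcl1 and Cxcl2 shared 1 match letter for letter, GGGAATTTCC, overlapped by a match on the opposite strand in both, and this sequence was present in 28 promoters (0.0852%) with these included. These windows are printed on the gene's strand, with the motif in capitals, and the Il6 window shows its match on that strand.
Cxcl1 (chr5:90891154-90891203, + strand): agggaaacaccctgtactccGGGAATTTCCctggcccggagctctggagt
Cxcl2 (chr5:90903782-90903831, + strand): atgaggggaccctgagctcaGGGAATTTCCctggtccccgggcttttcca
Il6 (chr5:30013050-30013099, + strand): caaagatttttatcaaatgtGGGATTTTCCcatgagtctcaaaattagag
The printed Cxcl1 motif lay 62 to 71 bases before the start, that of Cxcl2 88 to 97 bases and that of Il6 35 to 44 bases. No match of the loose motif was found in the 250 bases of Il1a and Il1b. Over both strands it matched 4 times for Cxcl1, 3 for Cxcl2, 3 for Il6 and 1 for Tnf. Each of the 2 Cdkn2a promoters had 2 matches.

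Few of these genes were bright enough to be read in both tissues. Well above background in Cy5, as judged by the scanner software, were Il1b, Ccl2 and Cdkn2a on all 19 lung arrays, Cxcl1 on 18 and Ccl7 on 16. Tnf was above background on 7 lung arrays, Il6 and Il1a on 4 each and Cxcl2 on 0. In forestomach, Ccl2 was above background on all 19 arrays, Ccl7 on 14 and Cdkn2a on 12. Il1b was above background on 2 forestomach arrays, Tnf on 1, and Il1a, Il6, Cxcl1 and Cxcl2 on 0. A ratio of a gene that is not above background rests on the intensity of the empty spot, so it is a bound at most.

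**Figure D1:**
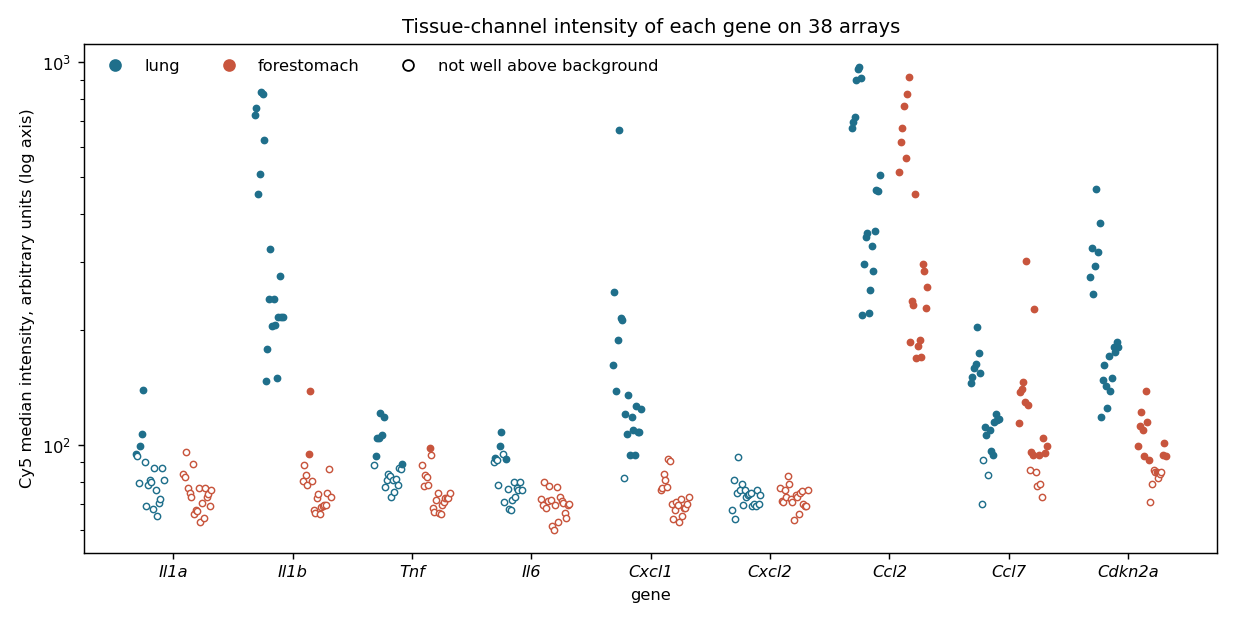
Cy5 median intensity in arbitrary units (log axis) of each gene on 19 lung and 19 forestomach arrays, 1 point per array, open where the spot was not well above background. In lung the points of Il1b, Ccl2 and Cdkn2a are all filled. In forestomach 4 of the 9 genes have open points on every array. Intensities of different genes are not comparable, since each probe has its own brightness.

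A few facts about the arrays bear on these values. Between 30.1% and 63.8% of all probes per array were above background in Cy5. The arrays lay on 5 slides, and 4 slides per tissue held both D0 and D3. They were scanned on 3 dates, with slides 1 and 2 on one, slides 3 and 4 on another and slide 5 on its own. Lung markers such as the surfactant genes were high in lung, where the mean log2 ratio of 8 lung epithelium markers lay between 4.29 and 5.33, against 0.35 to 0.92 in forestomach. The mean of 7 squamous markers lay between 3.19 and 4.11 in forestomach and between -0.28 and 0.06 in lung. Markers of glandular stomach split the forestomach arrays: their mean log2 ratio lay between 0.32 and 0.87 on 6 arrays and between 4.74 and 6.71 on the other 13. The 2 forestomach arrays labelled mouse 18, averaged to 1 sample here, stood on both sides of that split (0.87 and 6.30) and correlated at 0.773 across probes, while other pairs of forestomach arrays had a median of 0.877. Lung arrays varied in heart muscle and fat, with means of 6 markers each from 0.21 to 2.62 and from 0.67 to 2.32. In bulk tissue, fewer cells of a type and less RNA per cell cannot be told apart.

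In lung, none of the 9 genes passed the test at any dose, beside 0.14% of all probes at D1, 0.264% at D2 and 0.639% at the highest dose. A probe was called at a Benjamini-Hochberg adjusted p of at most 0.05 in limma with a change of at least 1.5-fold. At an unadjusted p under 0.05 the count of the 9 was also 0 at each dose, beside 3638, 4492 and 6267 of 55681 probes. The median log2 difference of the 9 from D0 was 0.01 in D1 mice, 0.03 in D2 mice and -0.15 in D3 mice, and over all probes it was 0 in each. In every dose group the values of each gene overlapped those of D0. Overlap was not counted over all probes, so it sets these genes apart from no others. At D3, 8 of 9 estimates lay below 0, but only 3 did when arrays were median-centred in place of loess.

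Il1b, which encodes interleukin-1 beta, had the largest SD of the 9 over all lung mice, 0.62. Its log2 ratios were 1.71, 2.49, 1.37, 2.08 and 1.96 in D0 mice, and 3.06, 3.21, 1.49, 2.16 and 2.19 in D1 mice. They were 3.28, 2.98, 2.10 and 1.89 at D2, and 2.32, 2.63, 2.50, 1.16 and 1.61 at D3. Some mice of D1, D2 and D3 were above all of D0, while the lowest lung value of all was a D3 mouse. The mean was 1.92 ± 0.42 (SD, n = 5) at D0 and 2.04 ± 0.63 (n = 5) at D3. The differences from D0 were 0.50 ± 0.34 (SE) at D1, 0.64 ± 0.36 at D2 and 0.12 ± 0.34 at D3, with limma adjusted p of 0.860, 0.692 and 0.943. Il1b was read by 10 spots on each array, and their SD within an array had a median of 0.13, which is spot error alone.

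Slide went with Il1b more than dose did. In lung, slide accounted for 0.641 of the variance (R2) and dose group for 0.183. Slide means were 2.88 and 2.83 on slides 1 and 2, against 1.82 to 1.87 on the remaining slides. Slides 1 and 2 were also those of 1 scan date, so slide and scan date cannot be told apart in this step. Slide 1 held no D0 array. Within the 4 slides that held both groups, D3 minus D0 was 0.14, -0.91, 1.13 and -0.23.

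Il1b also went with the neutrophil markers. Across the 19 lung mice, its log2 ratio correlated with the mean of 8 measured neutrophil markers, among them S100a8 and S100a9, at Pearson's r = 0.81 (permutation p = 6e-05, adjusted over 10 relations 6e-04) and Spearman's rho = 0.82 (permutation p = 6e-05, adjusted 6e-04). Without the 2 mice farthest from the median marker mean r was 0.87, and with slide means removed it was 0.73 (permutation p = 0.00141, unadjusted, with mice shuffled within slides, a test added after the data were seen). The first p-values treat mice as exchangeable across slides. Slides of 3 or 4 arrays were too small for a value of their own. On the scanner software's own log ratio, which subtracts background, r was 0.43. The marker mean ranged from 1.44 to 1.88 (median 1.61) in D0, from 1.51 to 2.1 (1.95) in D1, from 1.45 to 2.18 (1.86) in D2 and from 1.5 to 1.88 (1.76) in D3. The Il1b means were 1.92, 2.42, 2.56 and 2.04 from D0 to D3, and the Il1b medians 1.96, 2.19, 2.54 and 2.32. The dose groups ranked differently by marker median, Il1b mean and Il1b median, with D0 lowest in each. None of the 8 markers was called in lung at any dose, beside 0.14%, 0.264% and 0.639% of all probes at D1, D2 and D3. Of the 8 markers, Ngp was above background on no lung array. Whether neutrophil content had a part in the Il1b values was not tested.

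**Figure D2:**
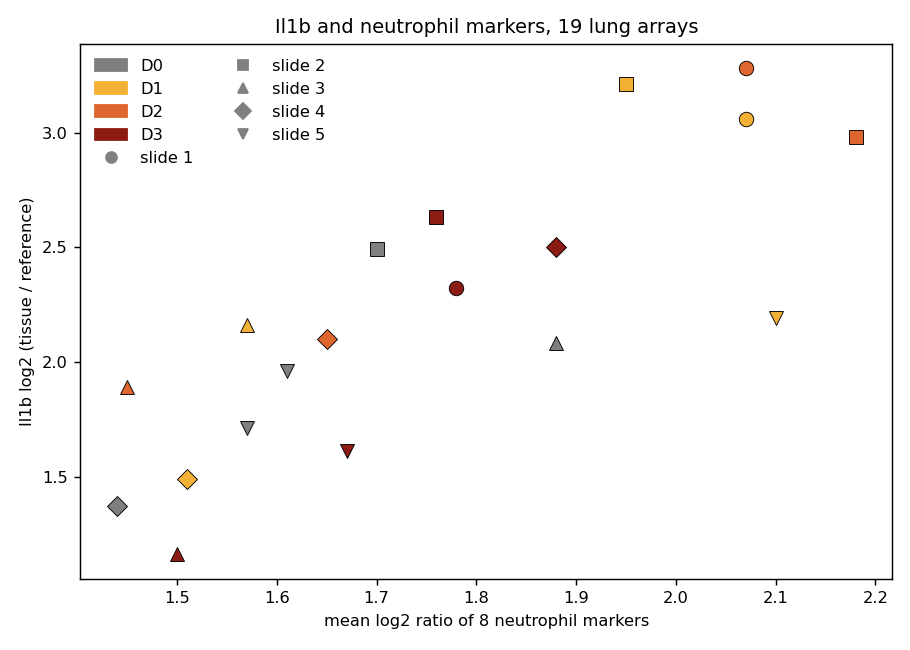
Log2 ratio of Il1b (vertical axis) against the mean log2 ratio of 8 neutrophil markers (horizontal axis) on 19 lung arrays, coloured by dose group and shaped by slide. Points rise together (r = 0.81), and the highest Il1b points (up to 3.28) lie on slides 1 and 2.

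The remaining cytokines Il1a, Tnf and Il6 were mostly at background in lung. Tnf, the founding member of its cytokine family, had lung log2 ratios from -1.05 to -0.48 over all mice, and its group means of -0.75, -0.74, -0.78 and -0.77 from D0 to D3 were closer to each other than the smallest within-group SD, 0.13. Il6 ratios lay between -2.21 and -1.27, with its 4 arrays above background in D1 and D2. Il1a ratios lay between -0.10 and 1.43, and the highest came from a D2 mouse whose array was above background. Its difference at D2 was 0.33 ± 0.18 (SE), with a limma adjusted p of 0.676. It was 0.10 without that mouse, number 12, and 1.09 on the scanner software's background-subtracted ratio.

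Cxcl1, a neutrophil chemokine, was low in lung relative to the reference pool. Its log2 ratios were -3.52, -3.63, -3.15, -3.05 and -3.11 at D0 and -3.92, -1.70, -3.18, -3.03 and -3.71 at D1. They were -3.07, -3.71, -3.39 and -3.20 at D2, and -4.12, -3.73, -3.07, -3.40 and -3.54 at D3. One D1 mouse, number 7, stood far above the rest at -1.70, with a Cy5 intensity of 664 where the other 18 lung arrays did not exceed 251. The same mouse had the highest lung values of Ccl2 (-3.12) and Cdkn2a (-3.72). For Ccl2, D0 mouse 2 on the same slide was close, at -3.20. Without mouse 7 the Cxcl1 difference at D1 was -0.17, so this mouse set its direction. With it, the Cxcl1 difference was 0.18 ± 0.29 (SE) at D1 and -0.28 ± 0.29 at D3, with limma adjusted p of 0.955 and 0.798. Cxcl2, its close relative, was above background on no array of either tissue, so these arrays give no level for it.

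For the monocyte chemokines no call was made. Ccl2 log2 ratios were -3.62, -3.20, -3.30, -3.58 and -3.71 at D0 and -3.71, -3.51, -3.44, -3.57 and -3.75 at D3, and the groups overlapped. Ccl2 was read by 10 spots per array, and its D3 difference of -0.11 had a 95% interval from -0.36 to 0.13. Ccl7 ratios were -3.95, -3.84, -3.47, -3.27 and -3.75 at D0 and -3.96, -4.24, -3.44, -3.37 and -4.19 at D3. Its D3 difference of -0.18 had an interval from -0.63 to 0.27. With median centring the D3 differences were 0.34 for Ccl2 and 0.20 for Ccl7, so the direction of both depended on the normalization. In both genes slide accounted for more of the lung variance (R2 of 0.552 for Ccl2 and 0.813 for Ccl7) than dose group did (0.13 and 0.0535).

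Cdkn2a had the smallest spread among D0 lungs, at -4.38, -4.41, -4.32, -4.40 and -4.15. At D3 the values were -4.84, -4.33, -4.79, -4.50 and -4.67. All 5 D3 mice were below the D0 mean, and the ranges still overlapped. The difference was -0.30 ± 0.15 (SE) with a 95% interval from -0.60 to 0.01 and a limma adjusted p of 0.472. It was 0.15 when arrays were median-centred, so its direction depended on the normalization. The second probe, above background on 2 lung arrays, gave -0.30 ± 0.14, with a 95% interval from -0.59 to -0.01. Its limma p was 0.0452 unadjusted and 0.429 adjusted. Both probes were listed under the same transcript, and the files do not give the exon they read, so p16Ink4a and p19Arf cannot be told apart.

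Among the 5 genes that were above background on 16 or more of the lung arrays, the upper ends of the 95% intervals at D3 were 0.82 for Il1b, 0.32 for Cxcl1, 0.27 for Ccl7, 0.13 for Ccl2 and 0.01 for Cdkn2a on the log2 scale. These bounds hold for loess ratios without background subtraction, which understate changes of dim probes. With median centring the estimates themselves were above them for Ccl2 (0.34) and Cdkn2a (0.15).

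**Figure D3:**
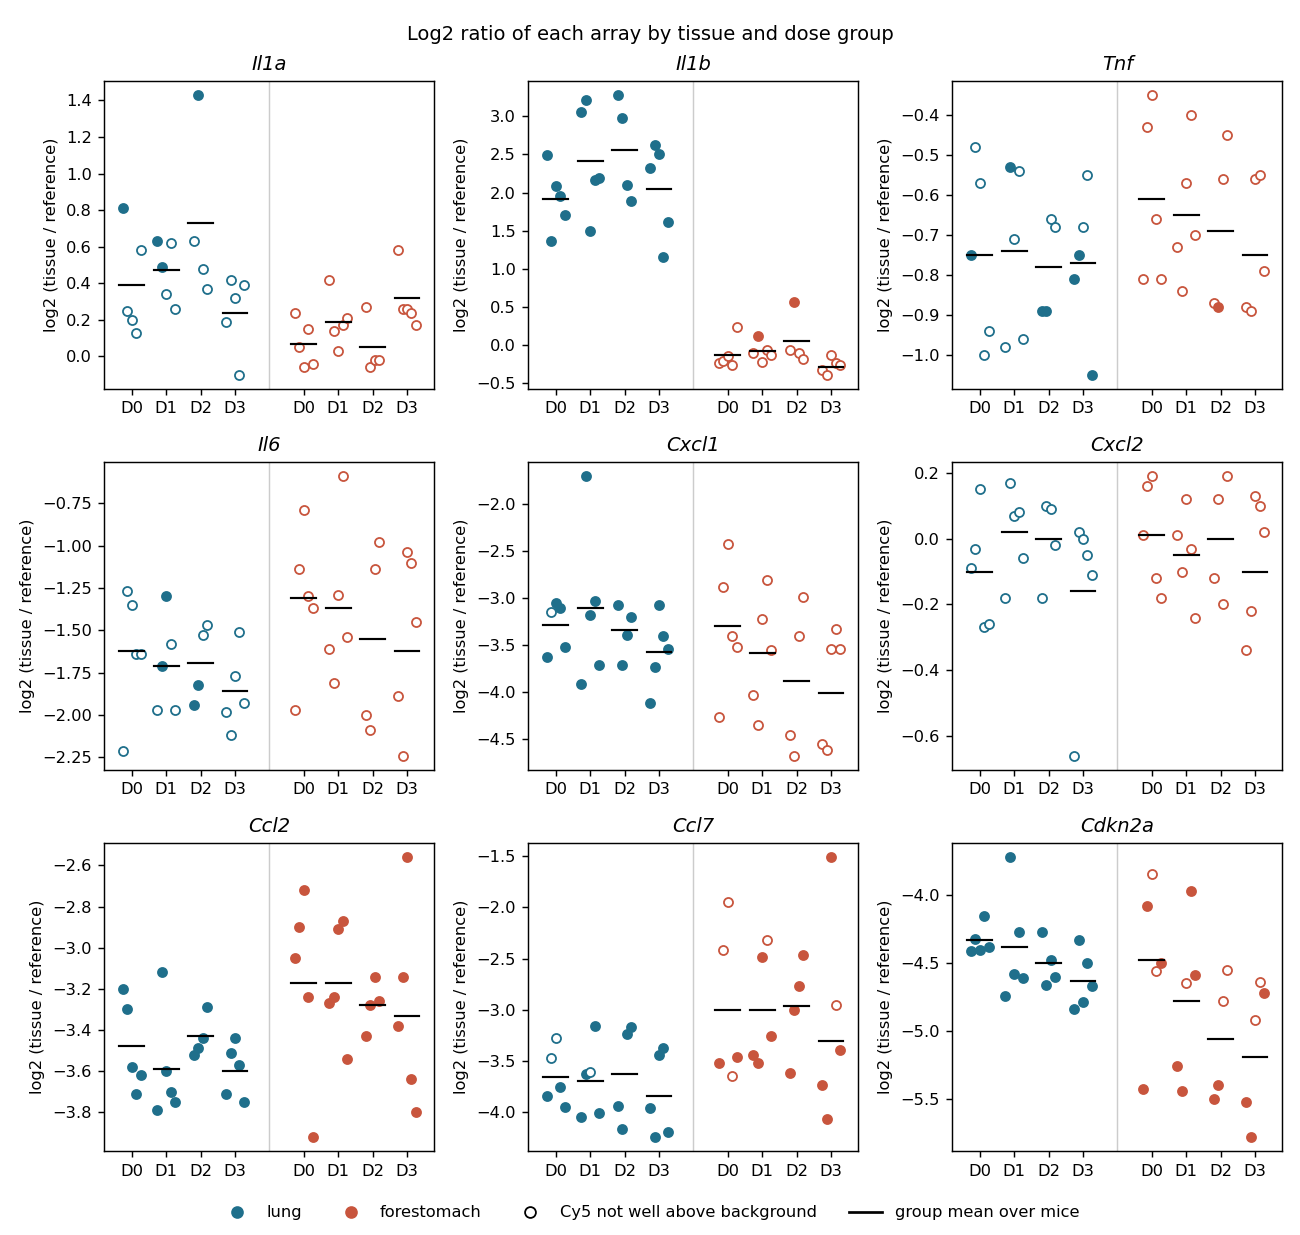
Log2 ratio of tissue over reference (vertical axis) for each gene by dose group, with lung on the left and forestomach on the right of each panel, 1 point per array, open where Cy5 was not well above background, and a bar at the mean over mice. Dose groups overlap in every panel, and the 2 tissues are separate only for Il1b.

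In forestomach, none of the 9 genes was called at any dose, and neither was any other probe (0% at each dose in limma). At an unadjusted p under 0.05, 0 of the 9 passed at D1, 0 at D2 and 1 at D3, beside 2404, 1728 and 1984 of 55681 probes. The 1 gene was Il1a, with a D3 difference of 0.25 ± 0.10 (SE) and a limma adjusted p of 1, and it was above background on no forestomach array. The second Cdkn2a probe, not above background on any forestomach array either, had -0.55 ± 0.25 (unadjusted p = 0.0396, limma adjusted p = 1).

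Ccl2 was the only one of the 9 that every forestomach array measured above background. Its log2 ratios were -3.92, -3.05, -2.90, -2.72 and -3.24 at D0. At D3 they were -3.38, -3.14 and -3.64 in mice 16, 17 and 19, and -2.56 and -3.80 on the arrays of mouse 18. The spread within D0 exceeded the D3 difference of -0.17 ± 0.20 (SE), which was 0.63 with median centring and -0.39 with scan date as a block. Ccl7 also differed between the arrays of mouse 18, at -1.51 and -3.39. With the first array alone, with the second alone, with both as separate samples, and with the glandular markers as a covariate, 0 of the 9 were called at D3.

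The group means of Cdkn2a fell in order from -4.48 at D0 to -5.19 at D3 in forestomach, and the D3 difference was -0.71 ± 0.35 (SE) with a limma adjusted p of 1. Cxcl1 had the same difference, -0.71 ± 0.43, on spots that were at background on all arrays. Slide accounted for 0.816 of the Cdkn2a variance and 0.882 of that of Cxcl1. Within the 4 slides with both groups, D3 minus D0 was -0.34, -0.91, -0.67 and -0.08 for Cxcl1 and -0.34, -0.80, -0.84 and -0.19 for Cdkn2a. With median centring, the D3 differences were 0.08 for Cdkn2a and 0.00 for Cxcl1.

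Vehicle-treated mice gave the levels of the 9 genes in the 2 tissues. Il1b was the 1 gene called, higher in lung, where 16.2% of all probes were called in either direction. Its log2 ratios at D0 lay between 1.37 and 2.49 in lung and between -0.26 and 0.23 in forestomach, with no overlap. The difference was 2.05 ± 0.28 (SE, n = 5 mice per tissue) with a limma adjusted p of 4.16e-07. No forestomach D0 array was above background, so on Cy5 alone Il1b was at least 3.35-fold higher in lung. The bound sets mean log2 Cy5 of 7.98 in lung against 6.24, the lowest signal above background on the forestomach arrays or the spot's own value where that was higher. Markers of neutrophils (4 of 8 called higher in lung) and of macrophages (7 of 7) differed between the tissues as well, and their part in the Il1b difference was not tested.

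The other genes were not called between the tissues. Ccl7 was lower in lung by -0.65 ± 0.32 (SE, limma adjusted p = 0.137). With mouse as a fixed replicate block, a paired comparison of the tissues of each mouse, this difference was again -0.65 and was called (adjusted p = 0.00611), which took the count of called genes to 2. It was 0.01 with median centring. Cxcl1 differed by 0.01 ± 0.37 and Cdkn2a by 0.15 ± 0.26 in the ratios without background subtraction. The second Cdkn2a probe was lower in lung, at -0.56 ± 0.20 (SE, limma adjusted p = 0.0316), and missed the fold threshold alone. That probe was above background on 1 of 5 lung and 0 of 5 forestomach D0 arrays. On the scanner software's background-subtracted ratio Cxcl1 was higher in lung by 2.17 and Cdkn2a by 1.2, and both were called, so the count was 3. Cxcl1 was above background on 4 of 5 lung and 0 of 5 forestomach D0 arrays.

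The D3 response of lung minus that of forestomach was called for none of the 9 genes, beside 0.172% of all probes. Their differences ranged from -0.40 for Il1a to 0.43 for Cxcl1 with a median of 0.11, and every limma adjusted p was 1. At an unadjusted p under 0.05 the count was 0, beside 2784 of 55681 probes. The intervals were wide, from -0.66 to 1.53 for Cxcl1 and from -0.55 to 1.11 for Il1b, so differences of up to 2.88-fold and 2.16-fold were within them. The forestomach arm of both genes was at or near background, with Cxcl1 above it on 0 and Il1b on 2 of 19 arrays.

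Of 14 genes for receptors of the cytokines and chemokines, 0 were called in lung at D1, D2 or D3. Over all probes 0.14%, 0.264% and 0.639% were called at these doses. The median difference of the 14 at D3 was 0.05. The largest changes at D3 were 0.46 ± 0.21 (SE) for Cxcr1, a receptor of neutrophil chemokines, and -0.41 ± 0.10 for Il6ra, the Il6 receptor, with limma adjusted p of 0.421 and 0.0508. Neither was called, since Il6ra missed the threshold of p and that of fold.

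A list of 9 genes of cytokine maturation and antagonism also held Osm, a cytokine of the Il6 family, and Il18bp, an antagonist of interleukin-18. It had 0 calls at any dose, beside 0.14%, 0.264% and 0.639% of all probes in lung at D1, D2 and D3. All 9 estimates were above 0 at lung D3, with a median of 0.17 against about 0 for all probes. Sigirr, an inhibitory receptor of the interleukin-1 family, had 0.55 ± 0.14 (SE) and a limma adjusted p of 0.0481, but stayed under the fold threshold at 1.46-fold. Gsdmd, the pore former that releases interleukin-1 beta, had 0.31 ± 0.10 (adjusted p = 0.186).

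Of 21 genes of the NF-kB pathway and its targets, 0 were called at any lung dose. The share of all probes called there was 0.14%, 0.264% and 0.639% from D1 to D3. The median difference at D3 was 0.03, with a range from -0.38 for Bcl3, a co-regulator of the pathway, to 0.37 for Icam1, an adhesion molecule that the pathway induces. Their limma adjusted p were 0.199 and 0.3. In forestomach the median of the 21 at D3 was -0.04.

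Of 42 other secreted factors known from senescent cells, 4 were called in lung at D3, 2 higher and 2 lower, beside 0.639% of all probes, and the median difference of the 42 was -0.05. Gdf15, a stress-induced member of the TGF-beta family, rose from a mean log2 ratio of -2 ± 0.28 (SD, n = 5) at D0 to 1.64 ± 0.23 (n = 5) at D3, a 12.4-fold difference (limma adjusted p = 1.87e-09). It was already 6.67-fold higher at D1 and 10.2-fold higher at D2.

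The factors that fell were Cxcl12, a chemokine that holds leukocytes and progenitors in tissue, and the IGF-binding proteins Igfbp5 and Igfbp6. Cxcl12 fell by 0.74 on the log2 scale at D3 (SE 0.15, limma adjusted p = 0.0123), but with median centring the difference was -0.18 and not called (adjusted p = 0.879). Igfbp6 fell by 0.59 at D3 (adjusted p = 0.0438), a call that was lost in 18 of 29 alternatives. Igfbp5 fell by 0.87 at D1 (adjusted p = 0.0253), where median centring left 0 calls over all probes, and its D3 difference of -0.52 was not called (adjusted p = 0.160).

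Of 18 other cell cycle arrest and senescence genes, 3 were called higher in lung at D3 and 0 lower, beside 0.639% of all probes, with a median difference of 0.27. Cdkn1a rose 4.57-fold at D1, 6.65-fold at D2 and 7.62-fold at D3 (limma adjusted p at D3 = 1.87e-09). At D3 Ccnd1, encoding cyclin D1, which drives rather than halts the cycle, rose 2.2-fold and Mdm2, the ubiquitin ligase that restrains p53, 1.77-fold (adjusted p = 0.000112 and 0.000377). Both of these calls were lost with median centring (adjusted p = 0.618 and 0.732), and that of Cdkn1a was not.

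In forestomach none of these list genes was called, and neither was any other probe (0% at each dose). Tested against that tissue at D3, the lung response was larger for Gdf15 by 4.07 ± 0.42 (SE), for Cdkn1a by 3.01 ± 0.22 and for Ccnd1 by 1.09 ± 0.22, with limma adjusted p of 8.73e-07, 2.11e-10 and 0.0183. Over all probes 0.172% were called in that test. With mouse as a fixed replicate block, which pairs the tissues of a mouse, the Ccnd1 difference was 1.11 and not called (adjusted p = 0.0842), and it was called in 46 of 51 alternatives. The Cdkn1a difference was lost with median centring alone (2.46), and that of Gdf15 was called in all 51.

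**Figure D4:**
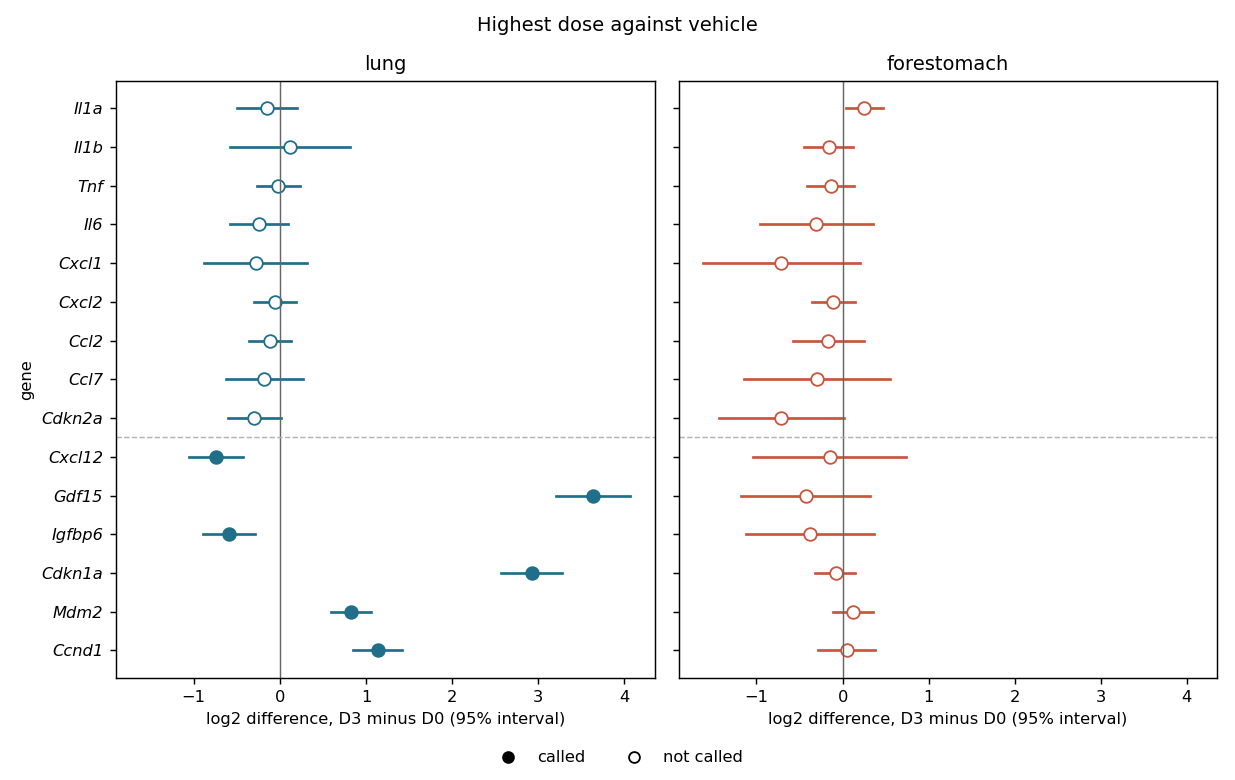
Log2 difference of D3 from D0 (horizontal axis) with its 95% interval for the 9 genes, above the dashed line, and for list genes called at lung D3, below it. Filled points were called. In lung the 9 genes lie between -0.30 and 0.12, while Gdf15 (3.64) and Cdkn1a (2.93) lie far to the right, and in forestomach no point is filled.

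Genes whose lung pattern over 19 mice was most like that of a member were picked by Pearson correlation of log2 ratios, as a description that slide may carry. They were the highest of 12741 other genes, a choice that favours high values, and were not tested. For Il1b they were Cstdc5 (0.88), C87436 (0.87) and Sirpb1b (0.87). For Ccl7 they were Atp6v1f (0.91), Car12 (0.87) and Rplp0 (0.87), and for Ccl2 they were Ss18l1 (0.83), Padi1 (0.81) and Il1rl1 (0.80), the last a receptor of the interleukin-1 family. Cxcl1 and Cdkn2a were each other's nearest gene at 0.77, and at 0.82 with slide means removed, but at 0.53 over the 18 mice without mouse 7, which had the highest value of both. In forestomach, the nearest of 11102 genes to Ccl2 over 18 mice were Litaf (0.91), Nradd (0.88) and Msn (0.86).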

How the data were processed

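The deposited scanner files gave, per the file headers, median spot intensities made by the authors with Feature Extraction 10.7.3.1, on a linear scale without background subtraction. Per the file headers, the deposited log10 ratio of the same files was computed by that software after background subtraction and dye normalization. A further table, deposited by the authors without a stated scale, held log2 ratios whose slope on the ratios used here was 0.99 to 0.998 and whose column medians were -0.0415 to -0.0195. Scale and direction were taken from that slope.

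Intensities were normalized by loess within each array, without background subtraction as in the study's methods. Control and outlier spots were left out and spots of a probe averaged to log2(Cy5/Cy3). Each tissue was fitted with limma 3.58.1 (R 4.3.3), with 1 mean per dose group, and tissues were compared in 1 fit over all mice. MAANOVA, which the study used, was replaced by limma. The fit was tested on simulated data with independent noise per probe. Those data held no slide or scan effect, so the test says nothing about such effects. Symbols came from RefSeq by transcript. A gene with several probes was described by the probe of highest mean Cy5, and list genes were named where called or among the 2 largest changes of a list at lung D3. A called probe had an adjusted p of at most 0.05 and a change of at least 1.5-fold. Correlation p-values are two-sided, from 100000 shuffles. The markers Ly6g, Cd68 and Ly6c2 were not matched. The number of arrays limits the precision.

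Both tissues came from the same mice per the labels. Deviations from group means correlated between the tissues of a mouse at a median of 0.186 over 18 mice (lowest 0.075), against -0.0244 for different mice. The genes and lists were chosen with earlier results of these data known. No forestomach array was labelled mouse 20. The second array labelled mouse 18 lay on slide 5, as did the lung array of mouse 20. Whether that label is right was not tested. Alternatives were other normalizations, background correction, Cy5 alone, a filter on dim probes, slide, scan or mouse as a block, left-out mice and the arrays of mouse 18. A list gene that was called is counted but not reported here by name.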

Additional observations from a re-analysis of the deposited data

Results flagged for a closer look

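Over 16 genes (the 9 described and 7 list genes called at lung D3) and 8 groups, 128 groups were searched for a sample far from the others, and 6 were found, where chance gives about 1 in 20. Il1a at -0.02 or lower in 3 D2 forestomachs was 0.27 in mouse 11, and at D3 it was 0.58 in mouse 16 against 0.26 or lower in the others. No forestomach array read Il1a above background. Il1b was 0.23 in D0 forestomach mouse 1 (next highest -0.15, not above background), and 0.57 in D2 forestomach mouse 12 (next highest -0.07), where the spots were above background. Cxcl2 was -0.66 in D3 lung mouse 16 (next lowest -0.11, not above background). Ccl2 was -3.12 in D1 lung mouse 7 (next highest of D1 -3.60), the mouse with the highest Cxcl1 in lung. D0 mouse 2 on the same slide had a Ccl2 ratio of -3.20.

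The lung and forestomach responses at D3 differed in a test of the difference for 3 list genes, by 4.07 for Gdf15, 3.01 for Cdkn1a and 1.09 for Ccnd1 on the log2 scale. Over all probes 0.172% were called in that test. Gdf15 in the forestomach was above background on 3 of 5 arrays at D0 and 4 of 5 at D3.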

How the results depend on the processing

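The count of called genes among the 9 was 0 for each dose in both tissues and for the tissue difference in response under every alternative run, and 1 (Il1b) for lung against forestomach in D0, except that it was 3 on the Feature Extraction log ratio and 2 (Ccl7 added) with slide or scan date as a fixed block or with mouse as a fixed replicate block. With mouse as a random replicate block it was 1. Il1b in that comparison ranged from 1.5 to 4.29 and was called in all 48 alternatives. Of 2408 values of uncalled genes under an alternative, 2319 moved by less than 1 SE, 167 changed sign and 5 became called. Leaving out a mouse of a group outside a comparison cannot move its estimate. Part of the 2319 was thus fixed in advance, and the tally overstates how stable the values were. Median centring raised the median of the 9 at lung D3 to 0.12. Over all probes it lowered the counts called at lung D1, D2 and D3 from 78, 147 and 356 to 0, 5 and 16, between the tissues from 9034 to 4553, and for the difference in response from 96 to 2. The Feature Extraction log ratio gave 160 at lung D1 and 225 at D2, and slide as a block 130 and 242, while Cy5 alone gave 48 at D1. For the difference in response slide as a block gave 204 and scan date 199. Leaving out lung mouse 12 gave 93 at D2, and leaving out forestomach mouse 16 gave 60 for the difference in response. At forestomach D3 the count was 3 in the fit of the D0 and D3 groups alone, and at most 1 elsewhere. At lung D3 Cdkn1a and Gdf15 were called under all 29 alternatives, and Cxcl12, Mdm2 and Ccnd1 under all but median centring. The tissue difference of Cdkn1a (2.46) and Ccnd1 (0.68) was not called under median centring. That of Ccnd1 was also lost without lung mouse 19 (0.99), without forestomach mouse 17 (1.06), with the first array of mouse 18 alone (1.01) and with mouse as a fixed replicate block (1.11). The correlation of Il1b with neutrophil markers, tried under added alternatives chosen after seeing the data, ranged from 0.43 to 0.93, and from 0.78 to 0.87 with 1 mouse left out. The causes were not tested. Genes not above background are limited by signal, not by the number of mice alone.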

Other observations

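Of the 10 relations of 5 genes read in lung with the mean neutrophil or macrophage markers, 2 others reached an adjusted p under 0.05 by Pearson's r alone, over 19 lung mice. Cxcl1 and the macrophage markers gave r = -0.58 (adjusted permutation p = 0.0403) and Spearman's rho = -0.48 (adjusted permutation p = 0.101), and r was -0.46 without the 2 mice farthest from the median and -0.51 with slide means removed. Cdkn2a gave r = -0.59 (adjusted permutation p = 0.0403) and rho = -0.54 (adjusted permutation p = 0.0657), with r = -0.30 without the 2 farthest mice and -0.54 with slide means removed, so the relation of Cdkn2a rested on those mice. Il1b and the macrophage markers gave r = -0.02.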
